A study of Oryza sativa with 6 samples.

Results

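In rice young panicles, 196 loci varied widely among the 3 libraries of each near-isogenic line, in NIL-qigl1HD385 and in NIL-qIGL1NIP alike. They were chosen for that spread from the deposited table of 46732 loci, which gives RPKM (reads scaled to gene length and to the library total). For the 12984 loci with a mean of at least 5 RPKM over 6 libraries, the SD of log2(RPKM + 0.5) was taken within each line, and the smaller of both SDs was ranked. Of the 200 loci with the largest smaller SD, 4 were among the 100 most abundant loci and were left out. All 196 have LOC_Os identifiers. The spread is what chose these loci, so it is described here without a test.

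Near-isogenic lines share most of their genome and differ at a chosen locus, here one named for grain length with an HD385 and a NIP version. The genotype label of both lines is wild type, and every library came from young panicles of 8 to 10 cm, with 3 libraries per line. They name no treatment and no plant age, and do not say which other segments the lines carry, or whether a library is one plant or a pool. The libraries of a line are called H1, H2 and H3 for NIL-qigl1HD385 replicates 1, 2 and 3, and N1, N2 and N3 for NIL-qIGL1NIP replicates 1, 2 and 3. As nothing in the labels says that they came from separate plants, the spread behind each p-value could be a technical one.

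A rice panicle carries many spikelets, and those near its tip are older than those near its base. While the panicle lengthens inside the leaf sheath, spikelet hulls, stamens and pistils grow, and cells in the anthers enter meiosis and then form pollen. Many plant genes are expressed in only some of these organs or for a short time, and others respond to light, time of day or stress. The deposited table gives no gene names, and in RefSeq's genes (assembly ASM3414082v1) 0 of the 46732 identifiers were found. The loci are therefore described by identifier and level, no role is given to any of them, and the labelled tissue was not checked against marker genes. The labels record no developmental stage for single libraries and none was measured here, so no part of the variation below is assigned to stage.

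The libraries had totals of 43536754 to 52466060 reads, recovered from the RPKM steps. In the values as deposited, H2 and N3 were often the lowest of their line. Among the 12788 other loci of at least 5 RPKM, H2 was the lowest of its line in 53.7% and N3 in 57%. With median-ratio scaling, added after seeing the data, these shares were 34.3% and 41.5%. The total of H2 was 48329989 reads, the highest of its line, and that of N3 was 43536754 reads, the lowest of its line.

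The spread of the 196 loci was several times that of the rest. Their median smaller SD was 1.011 on the log2(RPKM + 0.5) scale, with a range of 0.722 to 3.169, against a median of 0.103 for the other loci of at least 5 RPKM. The median SD was 1.466 in NIL-qigl1HD385 and 1.162 in NIL-qIGL1NIP. In 91 of the 196 the highest library of each line was at least 4-fold above the lowest on this scale, and in 29 at least 10-fold. Counting error was small beside this: from the recovered reads, the SD that counting alone gives had a median of 0.077 and a maximum of 0.331 in the noisier line of each locus. Each locus had at least 653 reads over the 6 libraries, with a median of 3846. Intervals or SDs from reads cover counting error only, and they treat each read as independent. The libraries were read as pairs, so if both reads of a pair were counted, the counting error is larger than given.

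**Figure D1:**
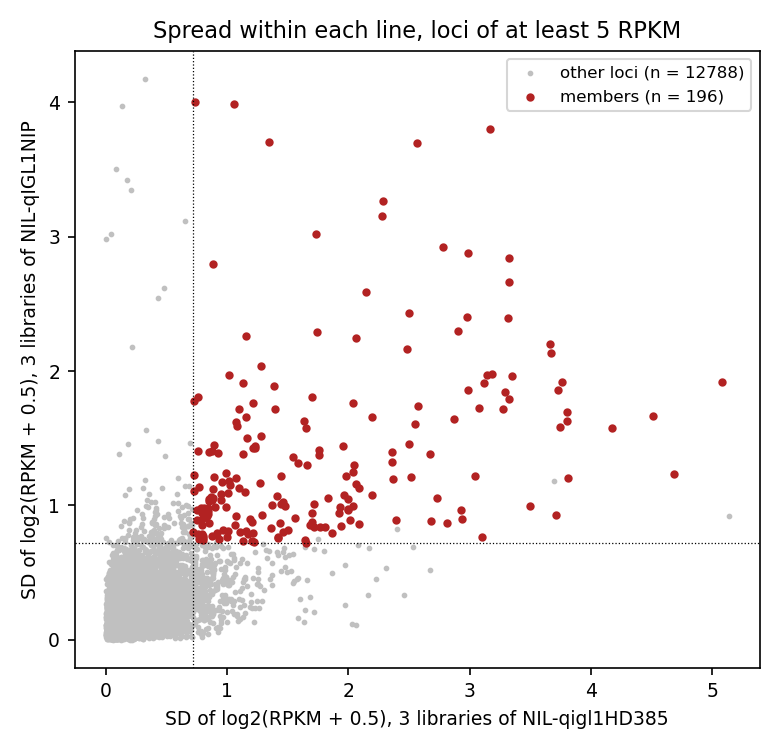
SD of log2(RPKM + 0.5) among the 3 libraries of NIL-qigl1HD385 (x axis) and of NIL-qIGL1NIP (y axis), 1 point per locus with a mean of at least 5 RPKM; the 196 chosen loci are red and dotted lines mark their smallest smaller SD, 0.722. Grey points past a single dotted line reached that SD in 1 of the rice lines only, though they may also vary in the other. The 4 grey points past both dotted lines are the abundant loci left out.

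At the edge of the choice the values change little. The last loci inside were LOC_Os02g41904, with a smaller SD of 0.7230, and LOC_Os12g36680, with 0.7224. LOC_Os12g36680 had 147, 54.4 and 104 RPKM in H1, H2 and H3 and 105, 180 and 58.7 RPKM in N1, N2 and N3. The first loci outside were LOC_Os12g02320, with 0.7200, and LOC_Os03g52910, with 0.7182. LOC_Os12g02320 had 40.6, 18.7 and 13.7 RPKM in H1 to H3 and 11.9, 23.7 and 32.4 RPKM in N1 to N3. The smaller SD thus passes the threshold without a gap.

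The 4 abundant loci that were left out had the same kind of spread. LOC_Os09g35700, which ranked 34 by mean RPKM, had 810, 1.09 and 705 RPKM in H1, H2 and H3 and 931, 1291 and 377 RPKM in N1, N2 and N3. LOC_Os08g43290, which ranked 29, had 945, 9.32 and 723 RPKM in the first line and 659, 1766 and 348 RPKM in the second. Both were lowest in H2 and in N3.

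The loci with the largest spread were near 0 in some libraries and clearly expressed in others of the same line. LOC_Os08g15505 had 32.5, 12.3 and 0 RPKM in H1, H2 and H3, and 0.93, 0.516 and 114 RPKM in N1, N2 and N3. LOC_Os02g49350 had 20.8, 0.207 and 0 RPKM in H1 to H3, and 0, 1.23 and 24.3 RPKM in N1 to N3. Both were high in H1 and N3 and low in H3, N1 and N2, and the ranges of the lines overlapped.

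A different set of libraries was high for the next loci by spread. LOC_Os05g49790 had 33.1, 0 and 20.6 RPKM in H1, H2 and H3, and 19.6, 47.1 and 0.61 RPKM in N1, N2 and N3. LOC_Os02g01190 had 20.7, 0.122 and 13.4 RPKM in H1 to H3, and 39.9, 41.1 and 0.723 RPKM in N1 to N3. Here H2 and N3 were near 0 while the other 4 libraries had at least 13.4 RPKM. LOC_Os10g21110, with 40.9, 0.793 and 0.0224 RPKM in H1 to H3 and 0.0385, 4.52 and 20.4 RPKM in N1 to N3, again had its highest values in H1 and N3. So did LOC_Os09g21240, with 16.8, 3.11 and 0 RPKM in H1 to H3 and 0.39, 0 and 54.3 RPKM in N1 to N3.

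A locus listed at 0 had no read in that library. This held for 14 of the 196 loci in at least 1 library (7.14%), against 0.172% of the other loci of at least 5 RPKM. Values of 0 at such a mean widen the SD by which the loci were chosen, so this contrast comes with the choice. H2 had 10 of the 196 at 0, H3 had 4, N1 had 3, N2 and N3 had 1 each, and H1 had 0. At the median gene length of the 196 loci, 1101 bases, a count of 0 allows up to 0.0564 RPKM in H2 and 0.0606 RPKM in H3. This is the level of 3 reads, with each read taken as independent.

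The 196 loci were spread unevenly over combinations of libraries, and the pair H1 and N2 differed most in share from the other loci. Each locus was described by the library that was highest in each line, which gives 9 possible pairs. The 3 pairs with the most chosen loci held 137 of the 196 (69.9%), against 43% of the other loci of at least 5 RPKM. As these pairs were picked by the chosen loci themselves, that contrast is raised by the picking. H1 and N2 were highest in 69 loci (35.2%), against 9.08% of the other loci of at least 5 RPKM. H1 and N3 were highest in 38 (19.4%, against 15.2%), and H3 and N1 in 30 (15.3%, against 18.8%). The other 6 pairs shared 59 loci. By contrast H2 and N2 were highest together in 1 locus, where the share among the other loci was 13.5%. The choice used the size of each SD and the mean level, so it did not name a library, but these shares come from the same values, move with the limit on the mean and were not tested. With a mean of at least 2, 5 and 10 RPKM, H1 and N2 were the highest pair in 104, 69 and 47 of the chosen loci.

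**Figure D2:**
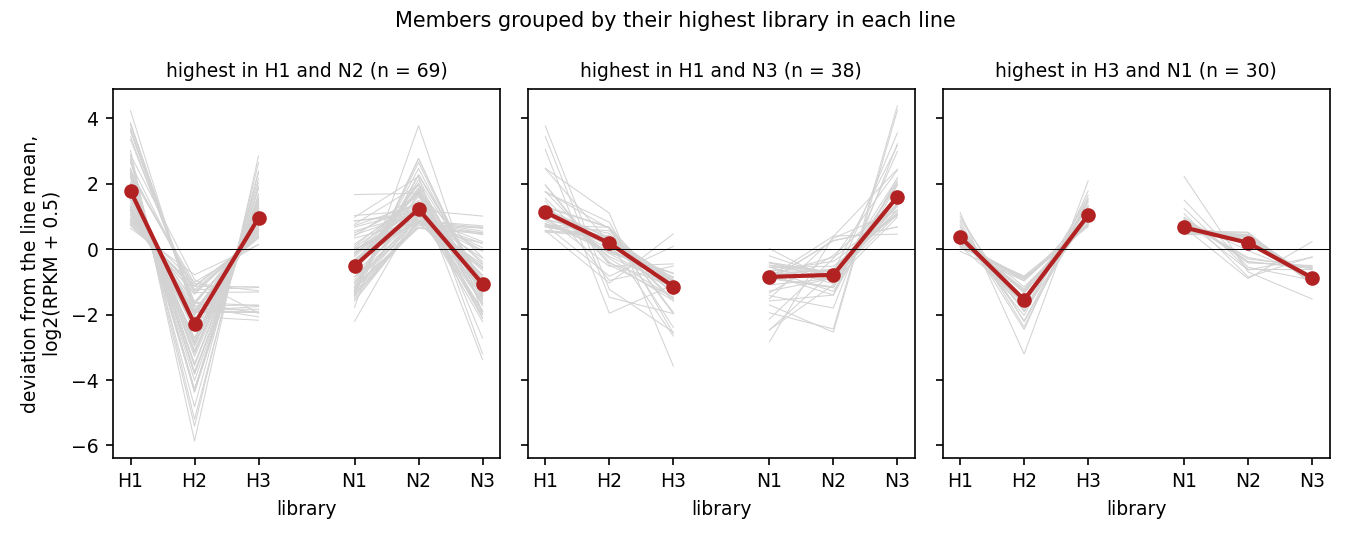
Deviation of each library from its line mean in log2(RPKM + 0.5), for the loci of the 3 largest groups; grey lines are single loci and red points and lines are group medians. In the group highest in H1 and N2 (69 loci) H2 dips to a median of -2.28, in the group highest in H1 and N3 (38 loci) N3 rises to 1.60, and in the group highest in H3 and N1 (30 loci) H2 and N3 lie lowest, at -1.55 and -0.88.

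The group highest in H1 and N2 was also the one with the deepest lows. Its 69 loci had median levels of 23, 0.469 and 10.5 RPKM in H1, H2 and H3, and of 4.85, 20.9 and 6 RPKM in N1, N2 and N3. In 41 of them H2 and N3 were the lowest libraries, as in LOC_Os05g49790 and LOC_Os02g01190, which lead this group by spread.

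Within that group a smaller set was expressed almost only in H1 and N2. In 9 loci, picked after their values were seen, both high libraries were at least 4-fold above the next of their line on the log2(RPKM + 0.5) scale. Their median levels were 28.3 RPKM in H1 and 9.87 RPKM in N2, and 0.109, 0.117, 0.0862 and 0.0767 RPKM in H2, H3, N1 and N3. Among them LOC_Os11g43640 had 44.6, 0.0728 and 0.0313 RPKM in H1 to H3 and 0.0939, 6.91 and 0.0485 RPKM in N1 to N3. H1 was the higher of the high libraries in the medians. In no library other than H1 and N2 did any of the 9 exceed 1.73 RPKM.

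The group highest in H1 and N3 separated all libraries of NIL-qigl1HD385, while in NIL-qIGL1NIP only N3 stood apart in the medians. Its 38 loci had medians of 17.2, 6.56 and 2.33 RPKM in H1, H2 and H3, and of 3.04, 4.29 and 25.9 RPKM in N1, N2 and N3. H3 and N1 were the lowest pair in 18 of them. Their gene models were short, with a median recovered length of 798 bases, against 1110 bases in the group highest in H1 and N2 and 1149 bases in the group highest in H3 and N1. LOC_Os08g15505 and LOC_Os02g49350 lead this group.

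The group highest in H3 and N1 was milder. Its 30 loci had medians of 11.9, 3.27 and 18.5 RPKM in H1, H2 and H3, and of 21.5, 11.6 and 7.12 RPKM in N1, N2 and N3. LOC_Os05g44120, first by spread in this group, had 1.37, 0.0685 and 4.6 RPKM in H1 to H3 and 21.7, 4.87 and 3.57 RPKM in N1 to N3. LOC_Os11g02330 had 20.9, 1.93 and 45.3 RPKM in H1 to H3 and 26.4, 6.92 and 6.89 RPKM in N1 to N3. H2 and N3 were the lowest pair in 27 of the 30, including both of these loci.

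Read by the lowest library, H2 and N3 were the commonest pair. They were the lowest pair in 92 of the 196 loci (46.9%), against 31.9% of the other loci of at least 5 RPKM. With median-ratio scaling of the same loci, the shares were 43.9% and 15.8%. In 59 of the 92, each lay at least 2-fold below the next library of its line on the log2(RPKM + 0.5) scale. The medians of the 92 were 16.6, 1.35 and 16 RPKM in H1, H2 and H3, and 22.4, 26.1 and 5.88 RPKM in N1, N2 and N3. Of the 92, 41 belong to the group highest in H1 and N2, 27 to that highest in H3 and N1 and 0 to that highest in H1 and N3. H2 was the library farthest from the middle value of its line, on the low side, in 115 of the 196 loci (58.7%, against 34.8% of the other loci). N3 was so on the low side in 60 (30.6%, against 43.3%) and on the high side in 55 (28.1%, against 19.5%). N3 was the lowest of its line in 51.5% of the 196 loci, against 57% of the other loci, and in 49% against 41.5% with median-ratio scaling. H1 was lowest in 7 loci. Ties within a line, which arise from values of 0, affected 2 of the 196 loci and were given to the first library.

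**Figure D3:**
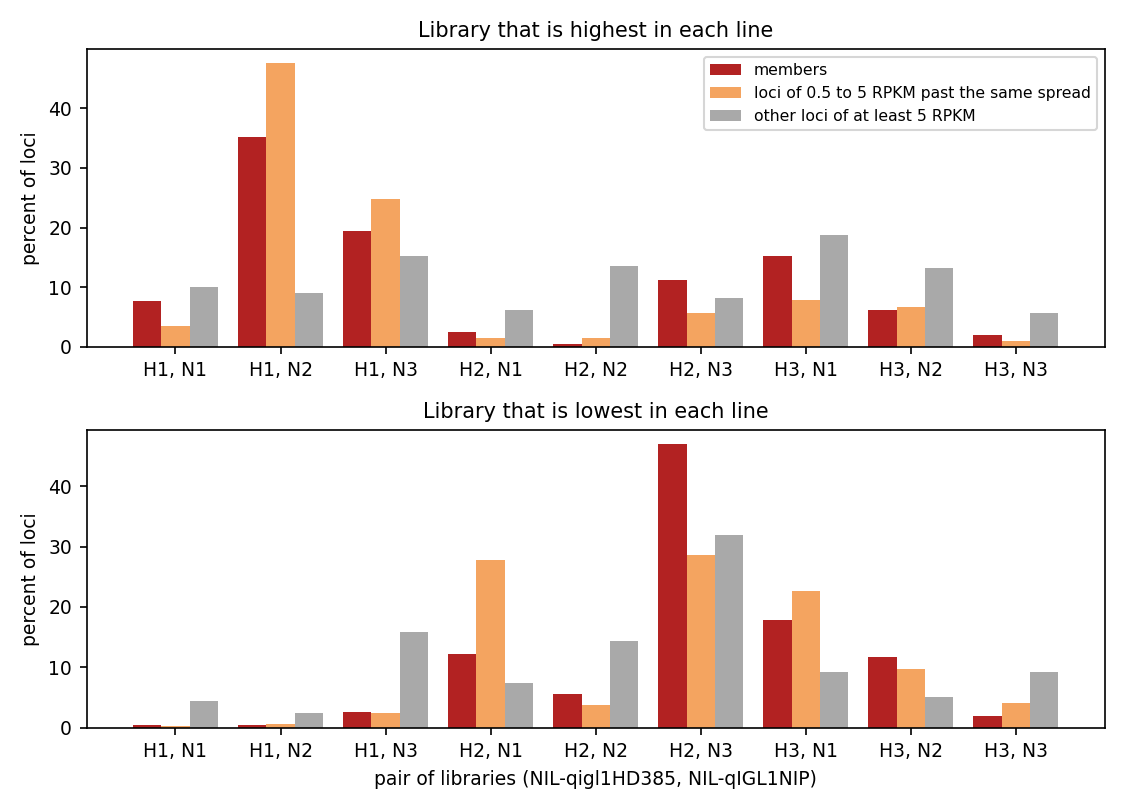
Percent of loci in which each pair of libraries, 1 from each line, is highest (top) or lowest (bottom), for the 196 chosen loci (red), the 318 less abundant loci past the same spread (orange) and the other loci of at least 5 RPKM (grey). H1 with N2 as the highest pair and H2 with N3 as the lowest pair are the tallest red bars, at 35.2% and 46.9%.

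Libraries of different lines deviated together over the 196 loci. Deviations from the line mean correlated across loci, which are not independent replicates, at 0.64 between H2 and N3, 0.58 between H3 and N1 and 0.50 between H1 and N2 (Pearson). Over the other loci of at least 5 RPKM the same pairs gave 0.19, 0.42 and -0.16. H3 and N3 were opposed, at -0.66 and -0.40 in the chosen and other loci. H2 and N2 were at -0.62 in the chosen loci and -0.00 in the other loci, and H1 and N1 at -0.33 and -0.09. Same-numbered libraries were thus all opposed in the chosen loci, but in the other loci mainly H3 and N3 were. Deviations sum to 0 within each line, so these correlations depend on each other, and each rests on a single library per line. The loci were chosen for large deviations in both lines. Contrasts with the other loci, here and for the axes below, use the values that chose them and were not tested. The first 2 axes of the deviations held 60.7% and 25.7% of their sum of squares, against 51.6% and 30.5% over the other loci. Library means across loci were not removed for these axes, so a library that is low in most loci enters them. On the first axis of the chosen loci the weights were 0.38, -0.70 and 0.32 for H1, H2 and H3, and 0.09, 0.31 and -0.40 for N1, N2 and N3. On the second they were 0.58, -0.18 and -0.41 for H1 to H3, and -0.50, 0.04 and 0.46 for N1 to N3. The first axis sets H2 and N3 against the others, and the second sets H1 and N3 against H3 and N1.

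**Figure D4:**
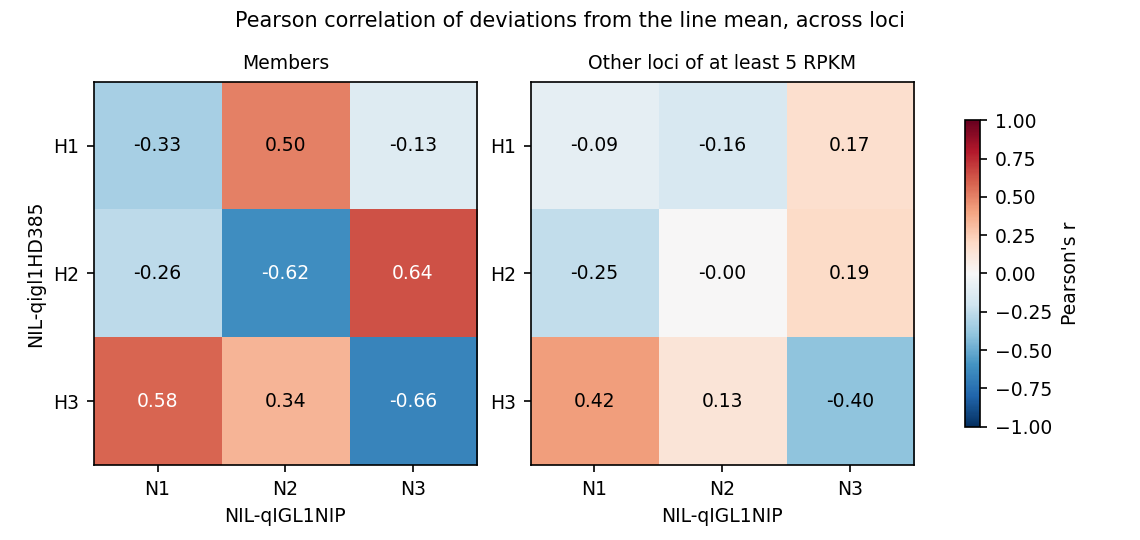
Pearson correlation across loci between the deviations from the line mean of each NIL-qigl1HD385 library (rows) and each NIL-qIGL1NIP library (columns), for the 196 chosen loci (left) and the 12788 other loci of at least 5 RPKM (right). The squares at H1 with N2, H2 with N3 and H3 with N1 are 0.50, 0.64 and 0.58 on the left and -0.16, 0.19 and 0.42 on the right. The loci on the left were chosen by the size of the same deviations, and the contrast was not tested.

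Loci too low for the choice showed part of the same pattern. Of the 10197 loci with a mean of 0.5 to 5 RPKM, 318 had a smaller SD at or above 0.722. In 151 of the 318 (47.5%) H1 and N2 were highest, and in 79 (24.8%) H1 and N3. The correlations between H2 and N3, H3 and N1, and H1 and N2 were 0.48, 0.45 and 0.45. H2 and N3 were the lowest pair in 28.6% of them, close to H2 and N1 with 27.7%. Counting error and values of 0 weigh more at these levels, and these loci come from the same 6 libraries. They were picked by the same spread, and shares over the remaining loci of 0.5 to 5 RPKM were not taken. The likeness was not tested.

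Among the other loci of at least 5 RPKM, profiles like those of the 3 groups also occurred at a smaller spread. The mean profile of the group highest in H3 and N1 correlated at over 0.9 across the 6 line-centred values with 1345 other loci (10.5%), and at under -0.9 with 388 (3.03%). For the group highest in H1 and N2 the counts were 333 (2.6%) and 72 (0.563%). For the group highest in H1 and N3 they were 341 (2.67%) and 516 (4.04%). These are 6 values with 4 free, so high correlations arise easily, and the counts only describe how common each shape was.

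The level of the 196 loci together also differed between libraries. The sums of RPKM, in which abundant loci weigh most, were 6968 RPKM in H1, 3068 in H2 and 5634 in H3, and 7379 in N1, 8484 in N2 and 5467 in N3. H2 and N3 had the lowest sums of their lines. The median RPKM over the 196 loci was 15.8, 2.06 and 8.69 in H1 to H3, where H2 was again lowest, and 10.3, 11.6 and 10.9 in N1 to N3, where N3 was not. In reads, the 196 loci took 0.903%, 0.331% and 0.700% of the totals in H1 to H3, and 0.989%, 1.184% and 0.620% in N1 to N3. In panicle tissue, fewer cells of a type and less RNA per cell cannot be told apart.

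The chosen loci had a lower median level and shorter gene models than the other loci of at least 5 RPKM. Their mean RPKM had a median of 11.4 and ran from 5.05 to 401, against a median of 16.2 for the other loci of at least 5 RPKM. The recovered length had a median of 1101 bases with quartiles of 662 and 1676, against 1862 bases with quartiles of 1266 and 2622. The counting SD had a median of 0.077 in the chosen loci and of 0.038 in the other loci.

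By chromosome, read from the identifiers, the loci were spread over all 12 chromosomes. Chromosomes 3 and 4 held 25 each, where an even share of the loci of at least 5 RPKM gives 27.9 and 16.8. Chromosome 1 held 17, where an even share gives 27.8. Chromosome 11 held 16 and chromosome 10 held 15, with even shares of 9.4 and 9.6. No chromosome held most of them.

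Some of the loci were next to each other. Each locus has up to 2 neighbours in identifier order among the loci of at least 5 RPKM, and 20 of 392 such neighbours (5.1%) were themselves chosen loci, against 1.51% of the loci of at least 5 RPKM. They form 10 pairs, and in 8 of the pairs both loci had the same highest libraries. As 3 combinations of highest libraries held 69.9% of the chosen loci, some agreement arises anyway. How often chosen loci that are not neighbours agree was not counted. Examples, singled out after their values were seen, are LOC_Os10g17660 and LOC_Os10g17680 on chromosome 10. LOC_Os10g17660 had 24.6, 0.0468 and 0.0503 RPKM in H1 to H3 and 0.0862, 6.36 and 0.208 RPKM in N1 to N3. LOC_Os10g17680 had 24.2, 0.184 and 0.198 RPKM in H1 to H3 and 0.0849, 9.89 and 0.0767 RPKM in N1 to N3. Both were high in H1 and N2 only. On chromosome 11, LOC_Os11g02350 beside LOC_Os11g02330 had 145, 38.8 and 244 RPKM in H1 to H3 and 197, 172 and 68 RPKM in N1 to N3, with H3 and N1 highest in both loci. Whether reads of similar copies were shared between neighbours was not tested.

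Between the lines, none of the 196 loci passed the test. The difference of the line means was fitted over 23181 loci with a mean of at least 0.5 RPKM using limma, as NIL-qigl1HD385 minus NIL-qIGL1NIP on the log2(RPKM + 0.5) scale. Of all loci tested 0.733% passed a Benjamini-Hochberg adjusted p under 0.05, and 0 of the 196 did. The smallest adjusted p among them was 0.185 (limma). At an unadjusted p under 0.05 there were 9 of the 196 (4.59%), all 9 lower in NIL-qigl1HD385, against 17% of the loci tested. The standard error of the difference had a median of 0.92 in the 196 loci and of 0.17 in all loci tested. As the loci were chosen for a large spread, which enters the test, a missing call does not show that the lines have equal levels.

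The fitted differences were large in size for many of the loci and went both ways. They ran from -4.72 to 2.53 on the log2 scale, and 60 of the 196 (30.6%) were at least 1 in size, against 3.55% of all loci tested. The choice for a large spread raises this share by itself, as the median standard error was 0.92 against 0.17. The share therefore does not show a difference between the lines. The mean was lower in NIL-qigl1HD385 in 137 loci and higher in 59, with a median difference of -0.35, against 0.02 over all loci tested. This direction rested on H2. Without H2, 77 loci were lower and 119 higher, with a median difference of 0.20, and without N3, 119 were lower and 77 higher, with a median of -0.45. Without H1 178 were lower, with a median of -0.90. Without N1 or H3 the median was -0.60. With H2 included, median-ratio scaling left 143 of the 196 lower (73%), against 51.8% of the other loci of at least 5 RPKM.

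The 3 values of either line lay beyond the 3 of the other in 9 of the 196 loci (4.59%), 1 higher and 8 lower in NIL-qigl1HD385, against 26.5% of all loci tested. A large spread within both lines makes their ranges overlap more easily, so the lower share comes with the choice. The smallest p among the 196 belonged to LOC_Os03g04550, named here after its values were seen. It had 5.55, 2.33 and 7.41 RPKM in H1 to H3 and 15.2, 9.53 and 27.7 RPKM in N1 to N3, a log2 difference of -1.68 (SE 0.50, adjusted p = 0.185 in limma). The locus without overlap that was higher in NIL-qigl1HD385 was LOC_Os05g06780. It had 81.6, 229 and 118 RPKM in H1 to H3 and 76.6, 77.3 and 26 RPKM in N1 to N3, a log2 difference of 1.27 (SE 0.54, adjusted p = 0.299 in limma). In neither locus did the difference pass the test.

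Which loci were chosen depended on H2 and N3 more than on the other libraries. When the choice was repeated without H2, 101 of the 196 loci were chosen again, and without N3, 105. Leaving out any of the other 4 libraries kept 149 to 158. Without H2, the H1 and N2 pair was highest in 33 of 198 chosen loci, and without N3 in 101 of 199. Fewer pairs are possible with a library left out, so these counts do not compare directly with those from all libraries.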

How the data were processed

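The authors deposited 1 RPKM value per locus and library. The submitters' processing notes name edgeR 3.12.1, Subread 1.5.1, featureCounts and Trimmomatic 0.36 but not what each did. The aligner, genome build and strand setting were not named there. Reads of overlapping or antisense loci may therefore not be told apart. Per the labels' protocols, the libraries were stranded mRNA libraries read as pairs on a DNBSEQ-T7 instrument. Low RPKM values are whole multiples of 1 read, from which totals, gene lengths and reads were recovered (Python 3.11.15): 100% of values above 0 were whole within 0.003 plus 2e-08 of the value, for lengths of 60 to 17000 bases. Recovered reads served depth, length and counting error only. Values were used as deposited, with a pseudocount of 0.5. The lines were compared two-sided with lmFit and trended eBayes of limma 3.58.1 (R 4.3.3), checked on simulated data. The members, and the tests, were chosen with earlier results of these data known. Named loci are the 6 with the largest spread, 2 on each side of the threshold, the 2 leading loci of the 3 largest groups and up to 2 called in each direction; others are said to be chosen after their values were seen. The lists of marker genes could not be matched to identifiers. Alternatives are given in the closing section.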

Additional observations from a re-analysis of the deposited data

How the results depend on the processing

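Of the 196 loci, 120 were chosen again with a mean RPKM of at least 2 and 112 with a mean of at least 10, filters that change which loci compete for the 200 places. The other settings (pseudocounts of 0.1 and 1, median-ratio scaling, quantile normalization, the abundant loci left out first, the coefficient of variation and the mean of both SDs) kept 152 to 196 of them. Leaving out each library kept 101 to 158. H2 and N3 were the lowest pair in 73 to 104 loci under these settings and in 100 to 113 without another library. H1 and N2 were the highest pair in 104 loci with a mean of at least 2 and in 47 to 74 under the others. With 1 library left out H1 and N2 were highest in 33 to 101. Fewer pairs are then possible, so counts without a library do not compare directly with those from all libraries. None of the 196 loci was called between the lines in any setting run, and the smallest adjusted p was 0.052 (limma, without N2). Over all loci, 170 were called, 94 when only the 17697 loci averaging 2 RPKM or more were tested, and 84 to 112 with 1 library left out. With the replicate number as a block, 46 were called and 0 of the 196. Nothing in the labels pairs the libraries: same-numbered deviations correlated at -0.28, -0.25 and -0.41 across loci, and no library (0 of 6) had its best correlation with the one of its own number. The direction of the differences between the lines without each library was added after seeing the data, with 77 to 178 loci lower in NIL-qigl1HD385.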
